A study of Mus musculus with 6 samples.

Results

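Integrins are receptors that hold cells to the extracellular matrix, and focal adhesions are the protein assemblies through which their short cytoplasmic tails are tied to the actin cytoskeleton. The genes described here are 39 symbols of this system: 17 integrin subunits and 22 proteins of the adhesion complex on the inner side of the membrane. They were picked by gene symbol, and no value of this comparison enters the rule. Earlier results of these data were known, however, when the list was chosen. All 39 had a row in the deposited table of 15159 genes, and all 39 had enough reads to be tested among 14758 genes. The RNA came from mouse heart cells at embryonic day 18.5, of the strain background C57BL/6 x 129S4/SvJae, kept for 4 days on a soft silicone (PDMS) sheet of 13 kPa in medium with serum. One group of 3 libraries (H3WT) carried an inducible transgene for wild-type histone H3.3, and the other group of 3 (H3K9M) carried the same kind of transgene with methionine in place of lysine 9, a residue whose methylation marks silenced chromatin. Both groups received doxycycline, the inducer, at 2 µg/ml, so the controls also carried an induced H3.3 transgene. The labels give neither the promoter or cell type that drives the transgene nor whether libraries stem from different animals, and the p-values therefore speak only of variation among the 6 libraries. Setting H3K9M against H3WT asks whether the receptors and linkers of matrix adhesion are transcribed at other levels when lysine 9 of the induced histone is mutated, on a soft support.

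Each integrin is a pair of 1 alpha and 1 beta subunit, and the pair sets the ligand. The beta 1 subunit pairs with many alpha subunits and serves as the main matrix receptor of heart muscle and of fibroblasts, whereas alpha v pairs with several beta subunits and, with beta 6 or beta 8, can release active transforming growth factor beta from its latent complex. Talin and kindlin bind the beta tail and switch the receptor on, vinculin, alpha-actinin, filamin and tensin connect it to actin, and the kinases FAK and SRC signal from the site. In cardiomyocytes the same proteins form costameres, which anchor the sarcomere to the membrane.

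The libraries held between 55550379 and 67994773 counts. Levels are CPM (counts scaled to one common library size), with TMM normalisation, and a log2 difference is always H3K9M minus H3WT. Defining cardiomyocyte genes were abundant in every library (their 10 markers summed to between 29033 and 35651 CPM), and so were those of fibroblasts (11554 to 19490 CPM) and of smooth muscle and mural cells (5926 to 7988 CPM), so the culture held several cell types. In RNA from such a mixture, fewer cells of a type and less RNA per cell cannot be told apart. The 10 endothelial markers summed to between 113 and 260 CPM, and of 10 epithelial and epicardial markers Epcam and Cdh1 are not analysed here.

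Most of the adhesion machinery had similar levels in both groups, and 2 integrin subunits, Itga8 and Itgb8, fell. None of the 39 genes rose at an edgeR adjusted p under 0.05 (5 of the positive differences had an unadjusted p under 0.05, DESeq2 called 2 as higher), and the 2 that fell stand against a background of 1.99% of all 14758 tested genes called in either direction (1.05% lower and 0.935% higher). The log2 differences ran from -1.31 (Itga4) to 0.58 (Itga5), with 22 positive and 17 negative and a median of 0.01, beside -0.00 over all tested genes. Of the 39 genes, 31 (79.5%) lay within 0.25 of zero on the log2 scale, compared with 66.6% of all tested genes. The spread was wider among the receptors: 11 of 17 subunits (64.7%) lay within that limit, as did 20 of the 22 intracellular proteins (90.9%). In 10 of the 39 genes the 3 libraries of one group all lay beyond the 3 of the other (5 higher and 5 lower in H3K9M), while 22.6% of all tested genes separated in this way, and 9 of 39 had an unadjusted p under 0.05, against 16.4%. These shares are close to the background, so the counts themselves are no result about the adhesion genes. DESeq2 called 5 of the 39 (Itga5 and Tns1 higher, Itga4, Itga8 and Itgb8 lower) and 6.9% of all genes, and limma-voom called 0 of the 39 and 1.5% of all. The authors' deposited table calls 2 of the 39 higher (Itga5 and Tns1) and 2 lower (Itga4 and Itga8), with 4.02% of its genes called.

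**Figure D1:**
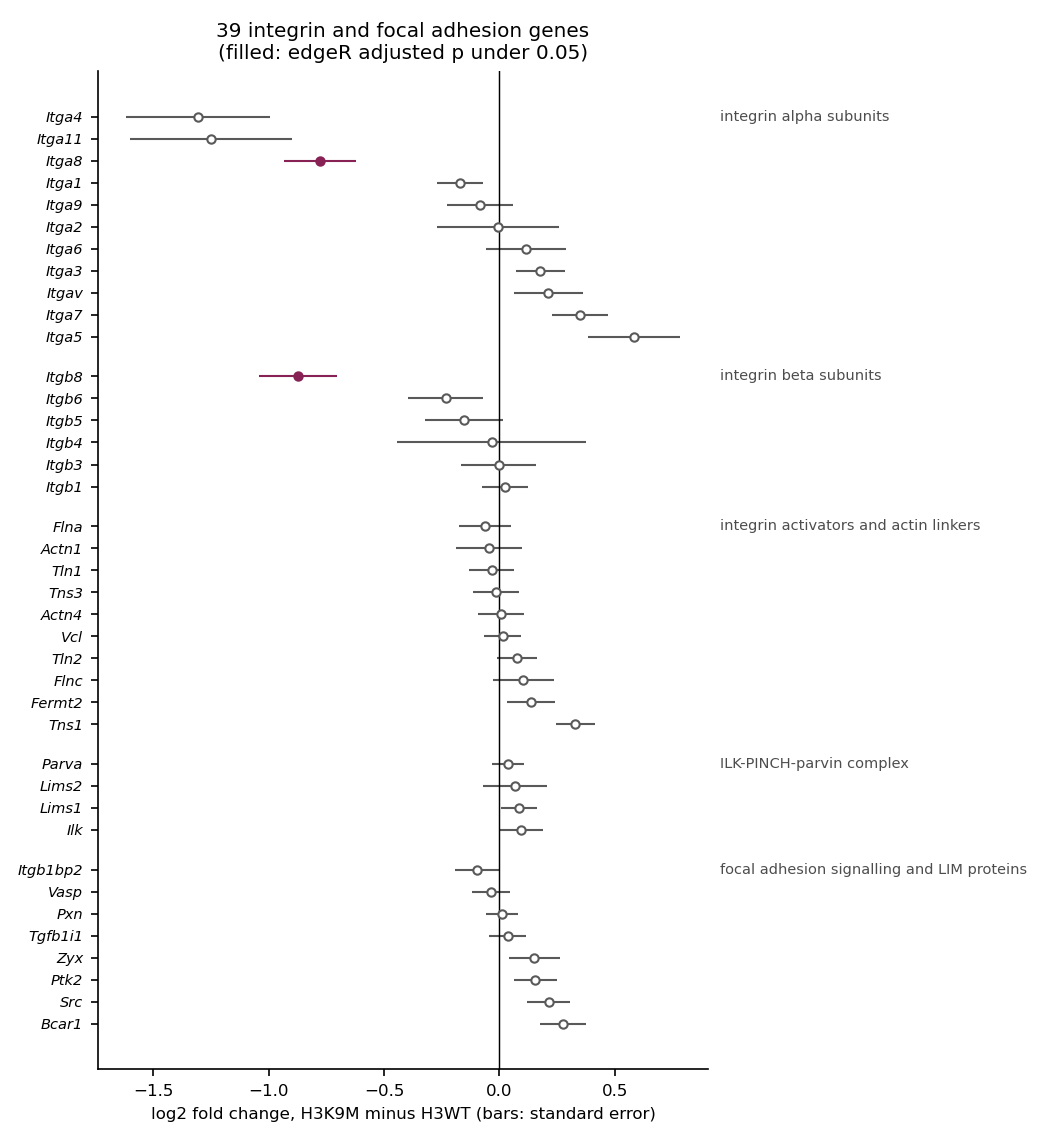
Log2 difference (H3K9M minus H3WT) with its standard error for each of the 39 genes, grouped by role. The intracellular proteins lie between -0.10 and 0.33, whereas the integrin subunits run from -1.31 to 0.58, with Itga8 and Itgb8 past the threshold.

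Itga8 encodes the alpha 8 subunit, which pairs with beta 1 and binds fibronectin, nephronectin and tenascin, and is found on smooth muscle and other mesenchymal cells. Its level was 111.4, 96.6 and 77.1 CPM in H3WT replicates 1, 2 and 3, and 44.8, 60.3 and 61.2 CPM in H3K9M. Every mutant library lay below every control library, the lowest control being 77.1 CPM and the highest mutant 61.2 CPM. The mean fell from 95.04 ± 17.2 CPM (SD, n = 3) to 55.5 ± 9.23 CPM, a log2 difference of -0.78 ± 0.16 (SE, edgeR adjusted p = 0.0476). Between 2625 and 6254 reads per library stand behind these values, so counting error is small beside the spread between libraries. The call rests close to the threshold. The adjusted p was 0.0584 with limma-voom, 0.0560 over the genes with at least 5 CPM in 3 libraries, 0.0651 with replicates 2 and 3 alone, 0.402 with replicates 1 and 3 alone, 0.0969 without H3WT replicate 1, 0.179 without H3WT replicate 2, 0.111, 0.123 and 0.107 without H3K9M replicate 1, 2 or 3, and 0.0201 without H3WT replicate 3. For Itga8 the authors' deposited table, made with DESeq2, has a log2 difference of -0.77 and an adjusted p of 0.000481.

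The gene lies on the minus strand of chromosome 2 (12106632 to 12301922, GRCm38). Of its exonic bases, 5.05% are shared with an antisense gene, E030013I19Rik, whose mean was 1.12 CPM in H3WT and 0.701 CPM in H3K9M, and the strand setting of the counting is not given. The upstream sequence of Itga8 is shown because it is the called alpha subunit, beside that of its partner Itgb1, whose level did not pass the test. Both are the 250 bases before the RefSeq start on GRCm38.p6, written 5′ to 3′ on the gene's strand (Itga8 chr2:12301945-12302194, minus; Itgb1 chr8:128685404-128685653, plus), with each CpG in capitals.
Itga8: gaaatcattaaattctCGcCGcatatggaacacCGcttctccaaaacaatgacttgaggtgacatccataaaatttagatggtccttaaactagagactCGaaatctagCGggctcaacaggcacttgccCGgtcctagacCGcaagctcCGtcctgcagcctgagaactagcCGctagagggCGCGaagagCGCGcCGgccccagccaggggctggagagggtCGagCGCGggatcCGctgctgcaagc
Itgb1: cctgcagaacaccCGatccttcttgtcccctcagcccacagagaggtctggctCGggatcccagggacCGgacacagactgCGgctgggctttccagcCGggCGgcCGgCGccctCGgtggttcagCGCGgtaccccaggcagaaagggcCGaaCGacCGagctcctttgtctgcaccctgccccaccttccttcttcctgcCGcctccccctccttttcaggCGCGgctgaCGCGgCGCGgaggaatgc
The Itga8 stretch holds 18 CpG sites at 56.4% GC, and that of Itgb1 holds 21 at 68.0% GC. The window of Itga8 lies within the first exon of the antisense gene. Promoters were found in the RefSeq table for 28 of the 39 genes (35 promoters), with a median of 18 CpG sites and 65.2% GC, compared with 6 and 52.4% over 32851 promoters of the table. The GC box GGGCGG, searched on both strands, was present in 21 of the 35 promoters (32.7% of all promoters of that length), and that of Itgb1 holds one. CCAAT was present in 8 (33.8% of all), CATTCC, the core of the TEAD motif, in 5 (12.6%), the CArG box of serum response factor in 3, those of Fermt2, Itgb6 and Vcl (1.47%), TGANTCA of AP-1 in 2 (6.75%), CACGTG in 2 (6.02%) and TATAAA in 1 (12.4%). None of these 7 motifs was found in the Itga8 window. A window set by the RefSeq start can lie within an exon of another annotated transcript, as that of Itgb8, one of the 8 with CCAAT, does in GENCODE. Such matches describe the letters only, since no binding or methylation was measured.

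Itgb8 encodes the beta 8 subunit, which pairs with alpha v alone and is known for activating latent transforming growth factor beta. It was among the least abundant of the subunits, at 9.96, 8.43 and 7.27 CPM in H3WT replicates 1, 2 and 3 and at 4.88, 4.56 and 4.55 CPM in H3K9M. The groups did not overlap, and the 3 mutant libraries lay close together. The mean fell from 8.55 ± 1.35 CPM (SD, n = 3) to 4.67 ± 0.19 CPM, a log2 difference of -0.87 ± 0.17 (SE, edgeR adjusted p = 0.0433), from 261 to 559 reads per library. The gene lies on the minus strand of chromosome 12 (119158022 to 119238802, GRCm38). Its adjusted p was 0.0666 with limma-voom, 0.116 with replicates 2 and 3 alone, 0.409 with replicates 1 and 3 alone, 0.102 and 0.163 without H3WT replicate 1 or 2, 0.107, 0.125 and 0.130 without H3K9M replicate 1, 2 or 3, and 0.0356 without H3WT replicate 3. For this gene the authors' deposited table has a log2 difference of -0.61 with an adjusted p of 0.229, which is no call, whereas DESeq2 on the deposited counts gave 0.000367. Its partner Itgav was at 399 ± 70.7 CPM in H3WT against 462 ± 66.8 CPM in H3K9M (SD, n = 3), and Itgb6, the other activating beta chain, at 11.4 ± 1.69 and 9.71 ± 1.35 CPM, both with overlapping groups.

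**Figure D2:**
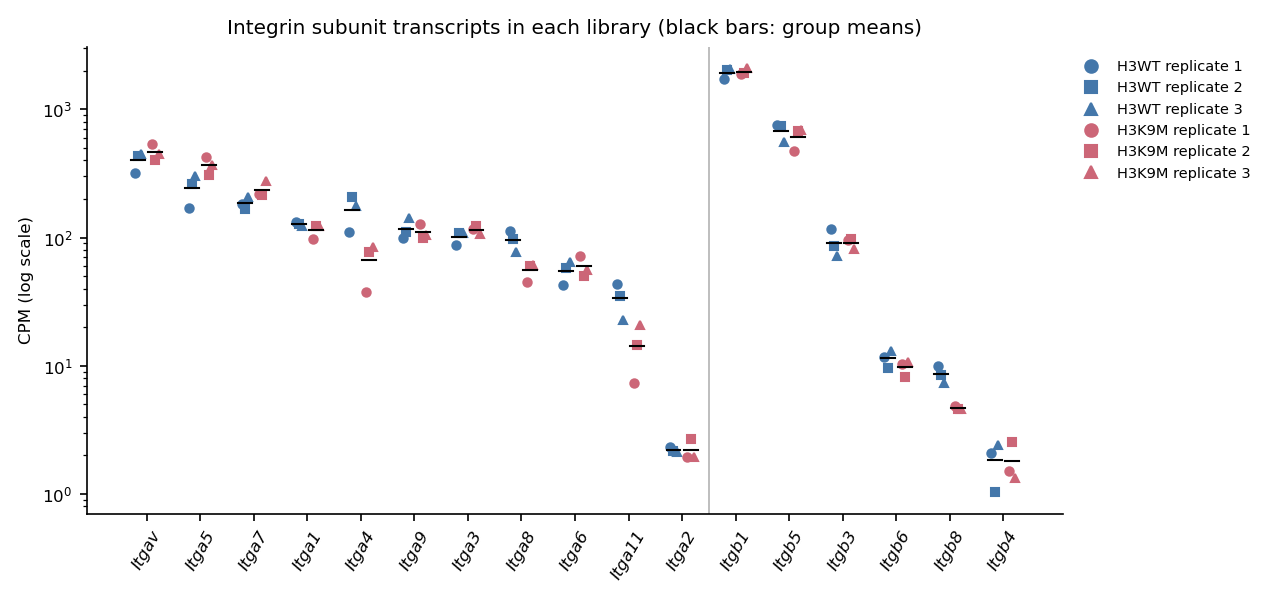
Level of each of the 17 integrin subunits in the 6 libraries, in CPM on a log axis, with alpha subunits and beta subunits in turn. Itgb1 lies highest, between 1722 and 2092 CPM in all 6 libraries, and the mutant libraries lie below the control libraries for Itga8, Itgb8, Itga4, Itga11 and Itga1.

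Compared per kilobase of exon, which allows levels of different genes to be set beside each other, beta 1 was the dominant beta chain. Itgb1 averaged 477 CPM per kb over the 6 libraries, 70.5% of the summed level of the 6 beta subunits. Itgb5, an alpha v partner for vitronectin, followed at 182 CPM per kb (26.9%), and Itgb8 made up 0.0882%. The libraries of neighbours in the beta order, which ran Itgb1, Itgb5, Itgb3, Itgb6, Itgb8 and Itgb4, did not overlap. Among alpha subunits the fibronectin receptor chain Itga5 was highest at 62.1 CPM per kb (31.3% of the alpha sum), before Itgav at 40.0 (20.2%), the laminin receptor chain Itga7 at 26.0 (13.1%), Itga3 at 19.0, Itga9 at 14.8, Itga8 at 10.2 (5.15%) and Itga4 at 8.26. Neighbours in the alpha order overlapped in range over the 6 libraries, except that Itga11 lay above Itga2, the lowest at 0.308 CPM per kb. The length is that of all annotated exons of a gene, so a gene with long exons that are seldom used is understated.

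Itga4 and Itga11 were lower in every mutant library and did not pass the test. Itga4, whose product pairs with beta 1 to bind fibronectin and VCAM1, was at 109.7, 208.3 and 175.6 CPM in H3WT replicates 1, 2 and 3 and at 37.7, 76.9 and 84.7 CPM in H3K9M. Its mean was 165 ± 50.2 CPM in H3WT and 66.4 ± 25.2 CPM in H3K9M (SD, n = 3), the largest difference among the 39 genes at -1.31 ± 0.31 on the log2 scale (SE, edgeR adjusted p = 0.0788). H3WT replicate 1 and H3K9M replicate 1 were the low libraries of their groups. With DESeq2 the adjusted p was 0.0231, without H3WT replicate 1 it was 0.0460, and the authors' deposited table gives 0.0243. It was 0.0852 with limma-voom, 0.487 with replicates 1 and 3 alone, and between 0.102 and 0.265 when any 1 of the other 5 libraries was left out. Of its exonic bases 8.04% are shared with Cerkl on the other strand.

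Itga11, the fibrillar collagen receptor chain of fibroblasts, was at 43.3, 35.04 and 22.9 CPM in H3WT replicates 1, 2 and 3 and at 7.38, 14.5 and 20.6 CPM in H3K9M. The highest mutant library and the lowest control library were close, at 20.6 and 22.9 CPM. The log2 difference was -1.25 ± 0.35 (edgeR adjusted p = 0.120). Of the other collagen receptor chains, Itga1 was at 133.2, 128.1 and 123.7 CPM in H3WT and 97.0, 122.3 and 123.0 CPM in H3K9M, where H3K9M replicate 1 alone lay far from the rest, and its log2 difference was -0.17 ± 0.10 (edgeR adjusted p = 0.455). Itga2 stood at 2.20 ± 0.12 CPM in H3WT against 2.19 ± 0.43 CPM in H3K9M (SD, n = 3). Itga10, from the list of further subunits and named after its values were seen, averaged 3.33 ± 0.87 CPM in H3WT and 2.60 ± 1.00 CPM in H3K9M, with overlap and a log2 difference of -0.36 ± 0.35 (SE, edgeR adjusted p = 0.674).

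Itga5, the alpha chain of the classical fibronectin receptor, had its values in the opposite order, with 170.9, 261.6 and 303.1 CPM in H3WT replicates 1, 2 and 3 and 428.2, 309.5 and 365.1 CPM in H3K9M. The groups lay apart by a small gap, 303.1 against 309.5 CPM, and replicate 1 was the lowest control and the highest mutant library. The mean was 245 ± 67.6 CPM in H3WT and 368 ± 59.4 CPM in H3K9M (SD, n = 3), a log2 difference of 0.58 ± 0.20 that did not pass the test (SE, edgeR adjusted p = 0.198). DESeq2 called it, here (adjusted p = 0.0267) and in the authors' deposited table (adjusted p = 0.0380). Itga7, the laminin receptor chain of muscle, was at 181.5, 165.9 and 207.2 CPM in H3WT and 218.1, 213.8 and 275.2 CPM in H3K9M, all 3 mutant libraries being above the controls. Its log2 difference was 0.35 ± 0.12 (SE, edgeR adjusted p = 0.199). The 2 other laminin receptor chains overlapped between groups, Itga3 at 102 ± 12.9 CPM in H3WT against 115 ± 8.39 CPM in H3K9M and Itga6 at 54.8 ± 11.2 and 59.4 ± 11.3 CPM, as did Itga9, at 117 ± 21.6 and 110 ± 15.6 CPM.

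The common partner of these alpha chains, Itgb1, was at 1722, 2028 and 2045 CPM in H3WT replicates 1, 2 and 3 and at 1885, 1916 and 2092 CPM in H3K9M. The groups overlapped over nearly their whole range, and the log2 difference was 0.02 ± 0.10 (SE, edgeR adjusted p = 0.936). Itgb5 was at 682 ± 113 CPM in H3WT against 613 ± 120 CPM in H3K9M (SD, n = 3), with H3K9M replicate 1 lowest at 474.5 CPM. Itgb3, another partner of alpha v, stood at 91.4 ± 23.0 and 91.2 ± 8.67 CPM, and Itgb4, the hemidesmosome subunit of epithelia, at 1.84 ± 0.73 and 1.80 ± 0.66 CPM.

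**Figure D3:**
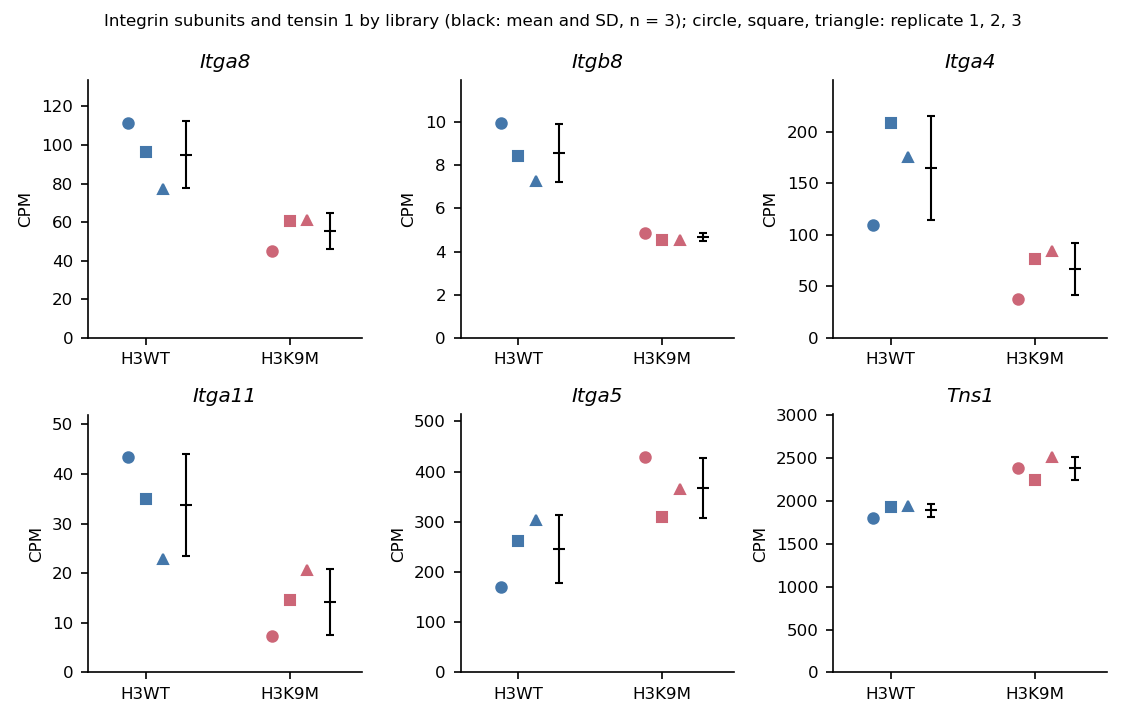
Level in CPM of 6 genes whose groups did not overlap, by library (circle, square and triangle for replicates 1, 2 and 3), with the mean and SD of 3 libraries in black. Itga8, Itgb8, Itga4 and Itga11 are lower in all 3 mutant libraries and Itga5 and Tns1 are higher.

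On the inner side of the membrane, the 10 activators and actin linkers held 0 genes called by edgeR (1 with an unadjusted p under 0.05, 1 called by DESeq2 and 0 by limma-voom), with a median log2 difference of 0.01. Tns1, tensin 1, which caps actin and binds the beta tail in mature adhesions, was at 1804, 1932 and 1941 CPM in H3WT replicates 1, 2 and 3 and at 2385, 2241 and 2505 CPM in H3K9M. All mutant libraries lay above all controls. The mean was 1892 ± 76.4 CPM in H3WT and 2377 ± 132 CPM in H3K9M (SD, n = 3), a log2 difference of 0.33 ± 0.09 (SE, edgeR adjusted p = 0.0988). Tns1 and Itga4 were the genes next to the threshold on its outer side, and Itga8 and Itgb8 on its inner side. DESeq2 called Tns1 here (adjusted p = 0.00173) and in the authors' deposited table (adjusted p = 0.00945). Its relative Tns3 was at 546 ± 65.9 and 541 ± 24.8 CPM.

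Flna, filamin A, the actin crosslinker that also binds beta tails, was the most abundant linker per length at 334 CPM per kb. It was at 2748, 3474 and 3401 CPM in H3WT replicates 1, 2 and 3 and at 3073, 2911 and 3233 CPM in H3K9M, so that the controls spanned the mutants. Apart from Tns1, the log2 differences of the linkers lay between -0.06 and 0.14. The 2 talins, Tln1 (953 ± 70.3 CPM in H3WT and 931 ± 81.0 CPM in H3K9M) and Tln2, the form of heart muscle (228 ± 10.5 and 240.0 ± 20.9 CPM), the kindlin Fermt2 (324 ± 42.2 and 357 ± 15.9 CPM) and Vcl, vinculin (902 ± 37.5 and 912 ± 45.3 CPM, with 25.5% of its exonic bases shared with the opposite-strand gene Ap3m1), all overlapped between groups. So did the alpha-actinins Actn1 (1137 ± 237 and 1102 ± 30.4 CPM) and Actn4 (1187 ± 128 and 1193 ± 47.6 CPM) and the muscle filamin Flnc (455 ± 43.6 and 489 ± 87.8 CPM). With the replicate spread of Actn1, whose log2 difference has a standard error of 0.14, a small change would not have been detected.

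The 4 genes of the complex of ILK, PINCH and parvin, which couples beta tails to actin, had log2 differences from 0.04 to 0.09, all positive, with 0 called by edgeR, DESeq2 or limma-voom and 0 at an unadjusted p under 0.05. Ilk was at 293.5, 340.3 and 338.8 CPM in H3WT replicates 1, 2 and 3 and at 377.8, 334.5 and 326.0 CPM in H3K9M, with only H3K9M replicate 1 above the controls. Of its exonic bases 89.7% are shared with genes on the opposite strand (Rrp8 and Taf10), so its count is uncertain without the strand setting. Parva, alpha-parvin, was at 390.2, 397.8 and 396.9 CPM and at 400.0, 412.4 and 404.1 CPM. Its groups did not overlap, yet the difference was 0.04 ± 0.07 on the log2 scale (SE, edgeR adjusted p = 0.835). The PINCH genes Lims1 (180.3 ± 11.4 and 191 ± 7.47 CPM) and Lims2 (28.3 ± 4.94 and 29.7 ± 2.42 CPM) overlapped.

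Among the 8 signalling and LIM proteins, 6 differences were positive and 2 negative. By edgeR 0 were called and 2 had an unadjusted p under 0.05, and 0 were called by DESeq2 or limma-voom. Bcar1, the scaffold p130Cas that SRC phosphorylates on stretching, was at 134.1, 169.1 and 163.6 CPM in H3WT replicates 1, 2 and 3 and at 198.7, 183.2 and 182.9 CPM in H3K9M. Every mutant library lay above the controls, by a log2 difference of 0.27 ± 0.10 (SE, edgeR adjusted p = 0.215). Zyx, zyxin, which moves to strained actin fibres, was the most abundant of this class per length at 90.1 CPM per kb. It was at 389.7, 500.8 and 490.3 CPM in H3WT and at 545.2, 484.5 and 504.4 CPM in H3K9M, with overlap. The kinases Src (49.6 ± 1.95 and 57.5 ± 6.06 CPM) and Ptk2, which encodes FAK (96.2 ± 10.7 and 107 ± 5.69 CPM), and the adaptors Pxn, paxillin (122 ± 4.89 and 123 ± 4.63 CPM), Vasp (170 ± 8.85 and 166 ± 12.6 CPM), Tgfb1i1, which encodes HIC5 (216 ± 16.3 and 222 ± 8.58 CPM), and the muscle protein Itgb1bp2, melusin (58.5 ± 6.04 and 54.8 ± 3.76 CPM), overlapped as well.

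Within the control group the libraries were not alike for these genes. H3WT replicate 1 was the lowest of its group in 24 of the 39 genes, a position it held in 36.4% of all tested genes, and H3WT replicate 3 was the highest in 19 (35.4% of all). Among the mutant libraries, replicate 2 was the lowest in 21 of 39 (33.1% of all) and replicate 1 the highest in 17 (36.1% of all).

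Beyond the 39 genes, 5 lists of the same system (149 genes, of which 143 were tested) held 3 called genes that rose and 2 that fell, or 3.50% beside the 1.99% of all tested genes. The extracellular ligands held 3 of them (2 higher and 1 lower of 40 tested). Col6a3, the alpha 3 chain of collagen VI, rose from 365.5, 344.4 and 322.5 CPM in H3WT to 725.8, 463.7 and 589.4 CPM in H3K9M, by 0.79 ± 0.15 on the log2 scale (SE, edgeR adjusted p = 0.0420). Tgfbi, a secreted protein that binds integrins and collagen, fell from 68.1, 65.5 and 58.5 CPM to 30.6, 44.4 and 28.1 CPM, by a log2 difference of -0.90 ± 0.16 (SE, edgeR adjusted p = 0.0373). Neither pair of groups overlapped. Fn1, fibronectin, the most abundant ligand transcript and the ligand of the receptors with alpha 4, alpha 5 and alpha 8, was at 11672, 13188 and 11364 CPM in H3WT replicates 1, 2 and 3 and at 7782, 8230 and 9732 CPM in H3K9M. Its groups did not overlap either, and its log2 difference of -0.49 ± 0.12 did not pass the test (SE, edgeR adjusted p = 0.0797, and 0.0797 with limma-voom). DESeq2 called Fn1 here (adjusted p = 0.00038) and in the authors' deposited table (adjusted p = 0.000406).

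Of 37 other focal adhesion proteins tested, 1 rose and 1 fell, beside 1.99% of all tested genes called. Of their differences 28 (75.7%) were positive and 9 negative, compared with 49.5% positive over all tested genes, and the median was 0.11. Lasp1, a LIM and SH3 protein of adhesions and actin, was at 312.5, 353.6 and 370.7 CPM in H3WT replicates 1, 2 and 3 and at 520.0, 464.2 and 467.9 CPM in H3K9M. It rose by 0.49 ± 0.09 on the log2 scale (SE, edgeR adjusted p = 0.0416). Kank4, of a family of proteins at the rim of adhesions that bind talin, fell from 19.0, 19.1 and 10.8 CPM to 6.71, 8.52 and 6.77 CPM, by a log2 difference of -1.15 ± 0.23 (SE, edgeR adjusted p = 0.0447). Among the 42 kinases, adaptors and cytoskeletal regulators, the 18 costamere genes and the 6 further integrin subunits tested, edgeR called 0. Of these, 5, 5 and 0 had an unadjusted p under 0.05 (16.4% of all tested genes), DESeq2 called 2, 3 and 0 (6.9% of all), and limma-voom called 0 (1.5% of all). As the most abundant genes of the lists, Vim, vimentin, was at 3020 ± 244 and 3289 ± 240.5 CPM, Cd81 at 663 ± 19.7 and 720 ± 28.4 CPM, Actn2, the sarcomeric alpha-actinin, at 1271 ± 174 and 1393 ± 185 CPM, and Itgam, of macrophages, at 7.12 ± 3.59 and 7.88 ± 0.71 CPM.

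**Figure D4:**
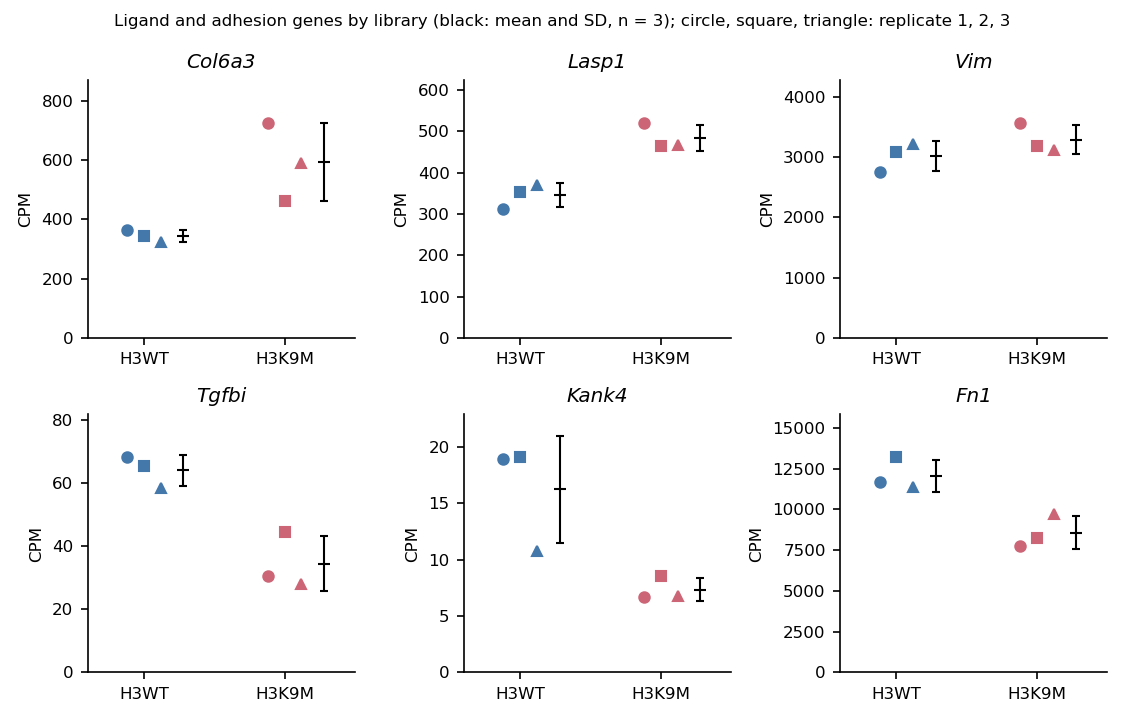
Level in CPM of 4 called genes of the related lists and of Fn1 and Vim, by library (circle, square and triangle for replicates 1, 2 and 3), with the mean and SD of 3 libraries in black. Col6a3 and Lasp1 are higher and Tgfbi, Kank4 and Fn1 lower in all 3 mutant libraries, and the groups overlap for Vim.

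The calls for the related genes changed when 1 library was left out, as did the counts over all tested genes. Each of these fits had fewer libraries, and the part of that loss in the changes was not tested. Without H3WT replicate 2, 0 of the 143 genes were called, and without H3WT replicate 3 there were 4 in each direction. The counts were 2 higher and 0 lower without H3WT replicate 1, and 1 and 0, 2 and 1, and 1 and 1 without H3K9M replicate 1, 2 and 3.

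Markers of other cell types also varied between the libraries. The 10 fibroblast markers summed to 19490, 17173 and 12871 CPM in H3WT replicates 1, 2 and 3 and to 11554, 15811 and 18359 CPM in H3K9M, so that the groups overlapped, with 8 of 10 markers negative, 0 called by edgeR, DESeq2 or limma-voom (2 with an unadjusted p under 0.05) and a median log2 difference of -0.63. The collagen genes Col1a1 and Col1a2, which set most of that sum, had log2 differences of 0.11 and -0.02, and Postn had 0.01. Col3a1, the next largest term, had -0.55, from a mean of 4589 CPM in H3WT to 3141 CPM in H3K9M, with overlap. The smaller terms were all negative, at -0.58 for Pdgfra, -0.67 for Dcn, -0.88 for Tcf21, -1.16 for Fap and -1.41 for Dpt. Lum averaged 30.6 CPM in H3WT and 15.2 CPM in H3K9M. The sum mainly follows the collagens, and the smaller terms were not set beside the integrins by library. Relative to the mean of the 6 libraries, fibroblast markers stood at 123%, 108% and 81.1% in H3WT replicates 1, 2 and 3 and at 72.8%, 99.6% and 116% in H3K9M, while Itga8 stood at 148%, 128% and 103% and at 59.6%, 80.2% and 81.4%, and Itga11 at 181%, 146% and 95.5% and at 30.8%, 60.6% and 86.2%. Within each group these 3 quantities had the same order of libraries, though Itga8 was nearly level in H3K9M replicates 2 and 3. In H3K9M replicate 3 the marker sum, most of it collagen, was above the mean and both integrins were below it. An order of 3 libraries per group cannot show a link to fibroblast content, and none was tested. Itgb8 was at 151%, 128% and 110% in H3WT replicates 1, 2 and 3, the order of the markers. In H3K9M it was at 73.9%, 69.0% and 68.9%. Those mutant values rest on 286, 277 and 261 reads, so their order lies within counting error. Itga4, at 95%, 180% and 152% and at 32.6%, 66.6% and 73.3%, differed from the markers in its order within H3WT.

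The 10 smooth muscle and mural markers summed to between 5987 and 7988 CPM in H3WT and between 5926 and 6314 CPM in H3K9M, with Smtn lower (242 against 185 CPM, edgeR adjusted p = 0.0443) and the other 9 not called. The 10 endothelial markers summed to 197 to 260 CPM in H3WT and 113 to 183 CPM in H3K9M, without overlap and with 9 of 10 negative. Their median log2 difference was -0.60, and edgeR and limma-voom called 0. Of the 10, 5 had an unadjusted edgeR p under 0.05 (16.4% of all tested genes) and DESeq2 called 2 (6.9% of all). The 10 macrophage markers summed to 138 to 504 CPM in H3WT and 205.5 to 265 CPM in H3K9M, and the 8 epicardial and epithelial markers with a row to 34.2 to 55.2 CPM and 55.4 to 107 CPM, where Krt8 rose (0.917 to 8.89 CPM, edgeR adjusted p = 0.0159). Krt18, the largest part of that sum, was at 29.7 and 57.4 CPM, with overlap. Of these 8 markers, 6 differences were positive and 2 negative, those of Wt1 (log2 -0.41) and Lrrn4 (log2 -1.59, without overlap). The summed cardiomyocyte markers overlapped, with 0 of 10 called by edgeR (1 with an unadjusted p under 0.05, 1 called by DESeq2 and 0 by limma-voom). Each marker overlapped too, except Pln, at 652 to 771 CPM in H3WT and 884 to 984 CPM in H3K9M (edgeR adjusted p = 0.0974). The sum of 14 immediate early genes was 1406 CPM in H3K9M replicate 1 and between 397 and 554 CPM in the other 5 libraries. All 14 differences were positive, with a median of 0.49 and 0 called by edgeR (2 with an unadjusted p under 0.05, 1 called by DESeq2 and 0 by limma-voom). In 2 of the 14 (14.3%, beside 22.6% of all tested genes) the groups did not overlap. These were Egr2, at 3.57 to 4.53 CPM in H3WT and 5.59 to 31.5 CPM in H3K9M, and Hspa1b, at 19.6 to 41.4 and 47.9 to 53.4 CPM. H3K9M replicate 1 was also the lowest library for Itga8, Itga4, Itga11, Itga1 and Itgb5 and the highest for Itga5 and Itgav. Sex-linked genes differed between libraries too, with overlapping groups. Xist was at 71.3, 376.0 and 353.1 CPM in H3WT replicates 1, 2 and 3 and at 135.9, 265.3 and 148.5 CPM in H3K9M. Ddx3y, of the Y chromosome, was at 73.4, 33.3 and 29.5 CPM and at 41.6, 29.0 and 55.6 CPM. The part of all these markers in the differences of the integrins was not tested.

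**Figure D5:**
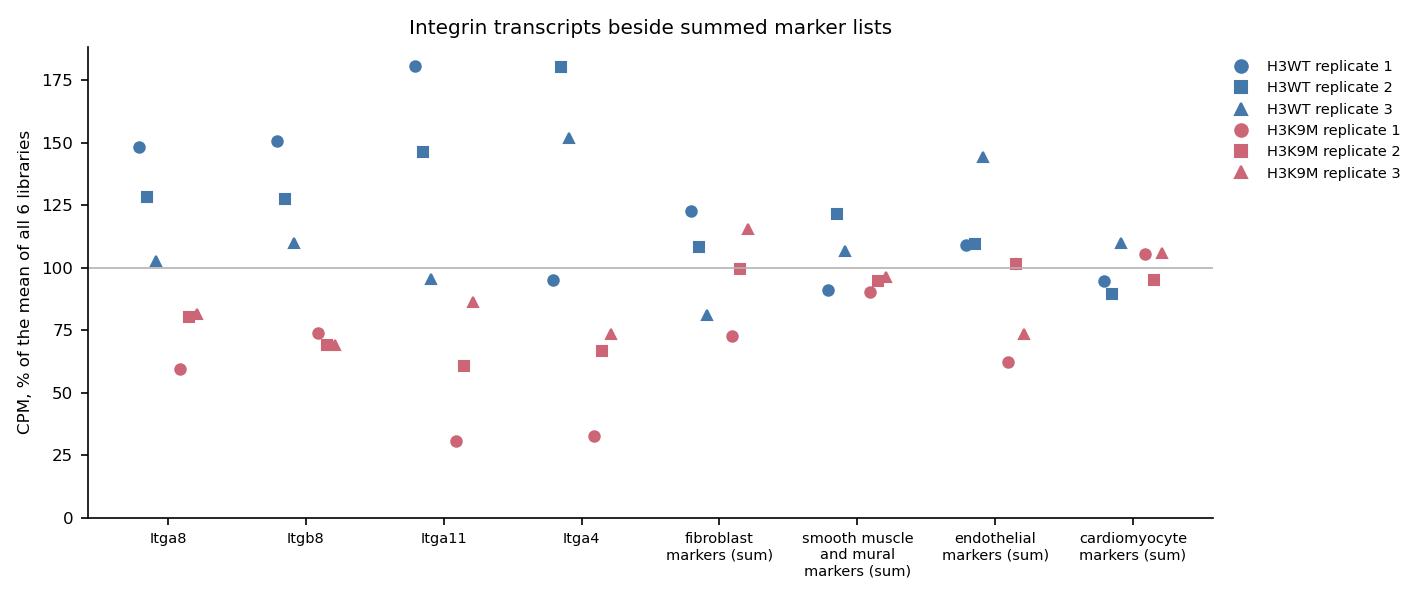
Level of 4 integrin subunits and the summed level of 4 marker lists in each library, as a percentage of the mean of the 6 libraries (line at 100). The 4 subunits were taken from those lower in every mutant library, so their groups are apart by selection. Of all 17 subunits, 10 overlapped, 5 were apart as lower and 2 as higher. Groups are also apart for the endothelial sum and overlap for the fibroblast, smooth muscle and cardiomyocyte sums. The fibroblast sum is mostly collagen and does not show its smaller terms.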

How the data were processed

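Polyadenylated RNA of 6 cultures of embryonic mouse heart cells was sequenced from Tecan Universal Plus libraries, per the labels' protocols. HISAT2, featureCounts, DESeq2 and the build mm10 are named in the submitters' processing notes. Tool versions, like the strand setting, were not given in the sources used here. Deposited by the authors were raw read counts per gene (15159 genes, smallest row total 19) and a comparison table of 14691 genes. That table, as the authors deposited it, gives a log2 fold change, a p-value with its adjustment, the mean normalised count (a signal) and a Wald statistic. The latter, a score the authors deposited, was left aside. Over 10518 genes, the mean of the deposited counts was a median 3.97 times the mean normalised count of that table (5th to 95th percentile 3.50 to 4.28), and the log2 differences from the 2 tables have the same sign for 33 of the 39 genes.

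Genes were filtered with filterByExpr (minimum 10 counts, 15 in total), leaving 14758, normalised with TMM and tested in edgeR 4.0.16 (R 4.3.3) by its quasi-likelihood F test, group as the only term, Benjamini-Hochberg adjusted over all tested genes at 0.05. Standard errors are the log2 fold change over the square root of F, with a median of 0.133, and the biological coefficient of variation was 18.8%. With 3 against 3 libraries an exact permutation test cannot give a two-sided p under 0.1. Exon lengths and coordinates came from GENCODE M21 (GRCm38, also called mm10) and upstream sequences from RefSeq (GRCm38.p6). Steps were tested on simulated data.

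The 39 genes, the 5 related lists and the marker lists were chosen with earlier results of these data known. Values per library are given for each of the 39 past the threshold, without overlap between groups, or highest per length in its role. Of a related list, called genes and the gene with the highest CPM are named, except that 1 called ligand gene, included in the counts, is not reported here. Ccn1 and Ccn2 were matched through RefSeq synonyms, and 6 listed genes (Itgad, Itgae, Itgb7, Fermt1, Vtn and Ibsp) are not analysed here. Alternatives were DESeq2 1.42.0, limma-voom (limma 3.58.1), RLE factors, TMM factors without marker and adhesion genes, no filter, at least 5 CPM in 3 libraries, an adjusted p under 0.1, the replicate number as a block, replicates 2 and 3, replicates 1 and 3, and leaving out each library. Titles of replicate 1 lack the day tag and those of replicate 2 lack the word for the soft substrate that the shared protocol gives for all. Pairs of replicates differed far beyond sampling noise (chi-square per gene 27.2 to 121.5), which leaves no duplicated library.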

Additional observations from a re-analysis of the deposited data

How the results depend on the processing

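Over 16 alternatives, 538 of 622 log2 differences of the 39 genes kept their direction and side of the threshold, 19 lost a call, 8 gained one and 57, in 21 genes, changed sign, none of them called. Itga8 kept its call in 6 alternatives and Itgb8 in 7, with log2 differences from -0.91 to -0.51 and from -0.98 to -0.75. Of these, the adjusted p under 0.1 is the main fit at a looser threshold, where no call can be lost. Among the fits that left out 1 library, 1 kept the call for each gene, that without H3WT replicate 3. The cause of the changes was not tested, beyond fewer libraries or genes where an alternative removes them. DESeq2 called 475 genes higher and 544 lower over the whole table, 2 and 3 of the 39, and 10 and 7 of the related lists. Limma-voom called 0 of the 39, and 3 related genes higher and 1 lower. An adjusted p under 0.1 gave 308 and 356 in all, 1 of the 39 higher (Tns1) and 3 lower, and 5 and 5 related genes. A minimum of 5 CPM, which leaves Itga2 and Itgb4 without a value, gave 0 of the 39 higher and 1 lower, 3 related genes higher and 1 lower, and Actn4 at -0.0014. Replicates 2 and 3 called 0 of the 39 higher and 1 lower and 3 related genes in each direction, and replicates 1 and 3 called 0 genes in all, so 0 higher or lower in any list.

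Leaving out 1 library gave 30 to 149 genes higher and 30 to 223 lower in all, 0 to 2 of the 39 lower, and 0 to 4 related genes in each direction. The lowest and highest log2 differences without 1 library were -0.21 and 0.074 for Actn1, -0.082 and 0.054 for Actn4, -0.050 and 0.20 for Flnc, -0.18 and 0.075 for Itga2, -0.049 and 0.25 for Itga6, -0.21 and 0.073 for Itga9, -0.15 and 0.60 for Itgam, -0.054 and 0.067 for Itgb1, -0.15 and 0.21 for Itgb3, -0.38 and 0.22 for Itgb4, -0.072 and 0.15 for Lims2, -0.017 and 0.042 for Pxn, -0.012 and 0.097 for Tgfb1i1, -0.094 and 0.027 for Tln1, -0.081 and 0.085 for Tns3, -0.094 and 0.017 for Vasp, and -0.023 and 0.048 for Vcl. Signs that changed with replicates 2 and 3 were those of Itga2 (0.12), Itga6 (-0.20), Itgav (-0.049), Itgb1 (-0.024), Itgb3 (0.18), Itgb4 (0.16), Itgb5 (0.077), Vcl (-0.0094), Actn4 (-0.11), Flnc (-0.074), Tns3 (0.064), Ilk (-0.041), Lims2 (-0.059), Zyx (-0.0040), Actn2 (-0.019) and Vim (-0.0025), and with replicates 1 and 3 those of Tln1 (0.026), Actn1 (0.035), Flna (0.037), Pxn (-0.025) and Vasp (0.0038). Itgb3 was at 3.65e-05 with DESeq2, 0.00019 with RLE factors and 0.025 with limma-voom.

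The replicate number as a block gave 31 genes higher and 27 lower in all, 1 of the 39 lower (Itga4, adjusted p = 0.0190), 0 related genes in either direction, and Itgb3 at 0.021. Same-numbered libraries did not deviate together over 10847 genes with at least 5 CPM (correlations -0.336, 0.087 and -0.176). With 3 libraries per group, such correlations cannot show whether same-numbered libraries share an animal or a preparation. The titles carry the tag M1 in replicate 1 and M5 in replicate 3 of both groups. In replicate 2 they carry M2 (H3WT) and M3 (H3K9M). Whether these tags mark a shared source was not tested.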

Other observations

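Of the 40 ligands tested, the groups did not overlap in 12 (30%), with 4 higher and 8 lower in H3K9M, beside 22.6% of all tested genes. Among them, some genes outside the naming rule, chosen after their values were seen, lay beyond the controls in every mutant library without passing the test. Npnt, nephronectin, a ligand of the receptor of alpha 8 and beta 1, was at 25.7, 35.7 and 67.1 CPM in H3WT replicates 1, 2 and 3 and at 122.0, 93.8 and 86.5 CPM in H3K9M, a log2 difference of 1.23 ± 0.31 (SE, edgeR adjusted p = 0.0909). Npnt was chosen with its values known, and a link between its level and that of Itga8 was not tested. Lama5, the alpha chain of basement membrane laminins, was at 278 ± 21.1 and 217 ± 10.6 CPM (edgeR adjusted p = 0.0759), and Thbs1, thrombospondin 1, at 4125 ± 623 and 2880 ± 454 CPM (edgeR adjusted p = 0.125). The ligand that beta 8 receptors activate, Tgfb1, was at 62.3 ± 0.74 and 64.5 ± 2.50 CPM, with overlapping groups.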
